A study of Homo sapiens with 18 samples.

Results

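DDIT4, DDIT4L, SESN1, SESN2, SESN3, TXNIP, ARRDC1, ARRDC2, ARRDC3 and ARRDC4 encode the DDIT4 (REDD) proteins, the sestrins and the α-arrestins, which restrain growth signalling and nutrient uptake. The genes were chosen by name, with earlier results of these data known. All 10 were present among the 23106 genes of the count tables. PolyA+ RNA had been sequenced from 3 human cell lines in normoxia and hypoxia, with 3 samples in each of the 6 groups (18 samples in all). The study ranked genes by their change in hypoxia in these libraries, to set binding sites of the hypoxia-inducible factor HIF beside the response of the nearest genes. HKC-8 is a line of renal proximal tubule epithelium, HepG2 is a hepatocellular carcinoma line, and RCC4 is a clear cell renal carcinoma line. All 6 RCC4 samples carried a stably transfected wild-type VHL, the subunit of the ubiquitin ligase that marks HIF-α for destruction in oxygenated cells. Whether those transfectants were a clone or a pool is not given in the sources used here.

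The labels gave 0.5% oxygen for 16 h for the hypoxic HKC-8 and HepG2 samples, and 1% oxygen for 24 h for the hypoxic RCC4 samples. For HKC-8, the hypoxic sample titles gave 0.1% instead, and the published description gave all lines the HKC-8 and HepG2 exposure. The exposure of RCC4 therefore could not be matched to the others, and its response was not tested against theirs. The HKC-8 libraries held 75441764 to 97984260 counts, those of RCC4 42045335 to 51794355 and those of HepG2 40915980 to 48355303. Levels are given as CPM, the read count scaled to the size of the library, and 3 counts were worth 0.0306 to 0.0733 CPM. All 5 hepatocyte markers were present in HepG2, where they summed to 22024 to 27920 CPM, against at most 10.5 CPM in the kidney lines. Of 5 kidney epithelial markers, RCC4 had 4 with at least 10 counts in every sample, whereas HKC-8 had only PAX8. HepG2 also had only PAX8, but the 5 summed to 9.18 to 13.2 CPM there, against 130 to 180 CPM in HKC-8. The megalin gene LRP2, which marks the proximal tubule, was at or under 3 counts in each HKC-8 sample. CUBN, of the same list, had 2 to 5 counts in normoxic HKC-8 samples and 24 to 68 in hypoxic ones. A set of 6 well known hypoxia-inducible genes rose wherever it could be tested (6 of 6 in HKC-8 and HepG2, and 5 of 5 in RCC4). These were bulk libraries, so that a change in all cells of a culture and a larger change in some of them cannot be told apart.

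The mTORC1 kinase complex drives protein and lipid synthesis when nutrients, energy and growth factors are ample. DDIT4 and its paralogue DDIT4L hold it back through the TSC complex, which switches off the small GTPase RHEB. The sestrins bind GATOR2 and thereby restrain the Rag GTPases that bring mTORC1 to the lysosome, and SESN2 releases GATOR2 when it binds leucine. The α-arrestins are adaptors that recruit NEDD4 family ubiquitin ligases to membrane proteins. Among them, TXNIP and ARRDC4 lower glucose uptake, TXNIP also binds thioredoxin, and the transcription of both is driven by MondoA (MLXIP) or ChREBP (MLXIPL) paired with MLX.

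The DNA before the start sites of 4 of the genes is shown because it differs in the letters that HIF and the MondoA/ChREBP pair are known to recognise. Each line gives the 250 bases before the first RefSeq start (GRCh37, 5′ to 3′ on the strand of the gene). Capitals mark ACGTG or GCGTG, the core of the hypoxia response element, on either strand (CACGT and CACGC are their reverse complements), and CACGAG in TXNIP.
DDIT4, chr10:74033432-74033681, forward strand: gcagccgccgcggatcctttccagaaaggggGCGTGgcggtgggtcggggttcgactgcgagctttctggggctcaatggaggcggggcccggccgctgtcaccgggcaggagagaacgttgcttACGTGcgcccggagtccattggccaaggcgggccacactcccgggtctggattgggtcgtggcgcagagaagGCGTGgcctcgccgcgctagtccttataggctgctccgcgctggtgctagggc
TXNIP, chr1:145438240-145438489, forward strand: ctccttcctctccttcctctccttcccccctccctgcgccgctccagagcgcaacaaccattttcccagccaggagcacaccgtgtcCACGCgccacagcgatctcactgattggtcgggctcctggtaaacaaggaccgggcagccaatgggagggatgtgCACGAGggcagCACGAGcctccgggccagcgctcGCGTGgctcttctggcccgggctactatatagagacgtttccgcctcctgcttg
ARRDC4, chr15:98503683-98503932, forward strand: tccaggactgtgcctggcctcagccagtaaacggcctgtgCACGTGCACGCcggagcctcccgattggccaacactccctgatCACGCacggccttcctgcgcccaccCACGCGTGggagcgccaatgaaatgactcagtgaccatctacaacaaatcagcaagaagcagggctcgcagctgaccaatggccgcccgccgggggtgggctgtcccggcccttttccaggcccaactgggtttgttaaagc
ARRDC3, chr5:90679135-90679384, reverse strand: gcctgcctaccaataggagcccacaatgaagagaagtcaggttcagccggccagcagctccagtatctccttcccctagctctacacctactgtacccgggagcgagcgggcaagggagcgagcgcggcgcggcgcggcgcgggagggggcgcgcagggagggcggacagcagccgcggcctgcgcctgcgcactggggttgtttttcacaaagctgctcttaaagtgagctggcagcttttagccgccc

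DDIT4 held 3 matches to ACGTG or GCGTG, which began 219, 125 and 53 bases before the start. ARRDC4 held 6, among them the palindrome CACGTG, which counts once on each strand, TXNIP and ARRDC2 held 2 each, and none was found in the windows of ARRDC3, ARRDC1, DDIT4L and the 3 sestrin genes. Of 35116 RefSeq windows of the same length, 43.2% held at least 1 such match, 7.76% held 3 or more and 6.34% held CACGTG. TXNIP held a pair of CACGAG motifs with 5 bases between them (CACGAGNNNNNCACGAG, beginning 88 bases before the start). CACGAG alone was in 5.58% of the windows, and the pair at that spacing in 2 of the 35116 (0.0057%). The letters of that pair were chosen after the TXNIP sequence was read. TXNIP itself was not left out of the windows counted, so the 2 matches are no independent measure of how rare the pair is. SESN1 has 3 starts in RefSeq and TXNIP, ARRDC2 and ARRDC3 have 2 each, and only the first listed was searched. A match is a description of these letters, and the counts do not show whether any factor bound there. The other genes lie at chr4:101107027-101111939 (DDIT4L), chr6:109305512-109416049 (SESN1), chr1:28586029-28609002 (SESN2), chr11:94898677-94965705 (SESN3), chr9:140500137-140509812 (ARRDC1) and chr19:18111941-18124911 (ARRDC2) in GENCODE on GRCh37.

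Of the 10 genes, 9 had enough counts to be tested in HKC-8 and HepG2 and 8 in RCC4. In HKC-8, 7 rose (DDIT4, SESN2, SESN3, TXNIP, ARRDC2, ARRDC3 and ARRDC4) and none fell, where 11.2% of the 13536 genes tested rose and 9.12% fell at an adjusted p under 0.05 (edgeR quasi-likelihood test, Benjamini-Hochberg adjustment). Their median log2 fold change was 1.21 against 0.00 for all genes. In RCC4, 3 rose (DDIT4, ARRDC2 and ARRDC3) and 2 fell (SESN2 and TXNIP), beside 25.9% and 24.2% of all genes, with medians of 0.06 and 0.00. In HepG2, 4 rose (DDIT4, TXNIP, ARRDC2 and ARRDC4) and 2 fell (SESN1 and SESN2), beside 19.9% and 19.2% of all genes, with medians of -0.02 and 0.00. DDIT4 and ARRDC2 rose in all 3 lines, and ARRDC1 passed the test in none. Since the genes were chosen with earlier results of these data known, the shares set beside them are no independent test of an excess. In HKC-8, samples of the same replicate number deviated together for numbers 2 and 3 (r = 0.453 and 0.447) but little for number 1 (r = 0.109). A fit of HKC-8 with the replicate number as a block called the same 7 genes, beside 42.5% of all genes called in either direction in place of 20.4%. The labels do not say whether samples of a group came from separate cultures, so that the p-values measure only the spread between these samples, which may be technical.

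**Figure D1:**
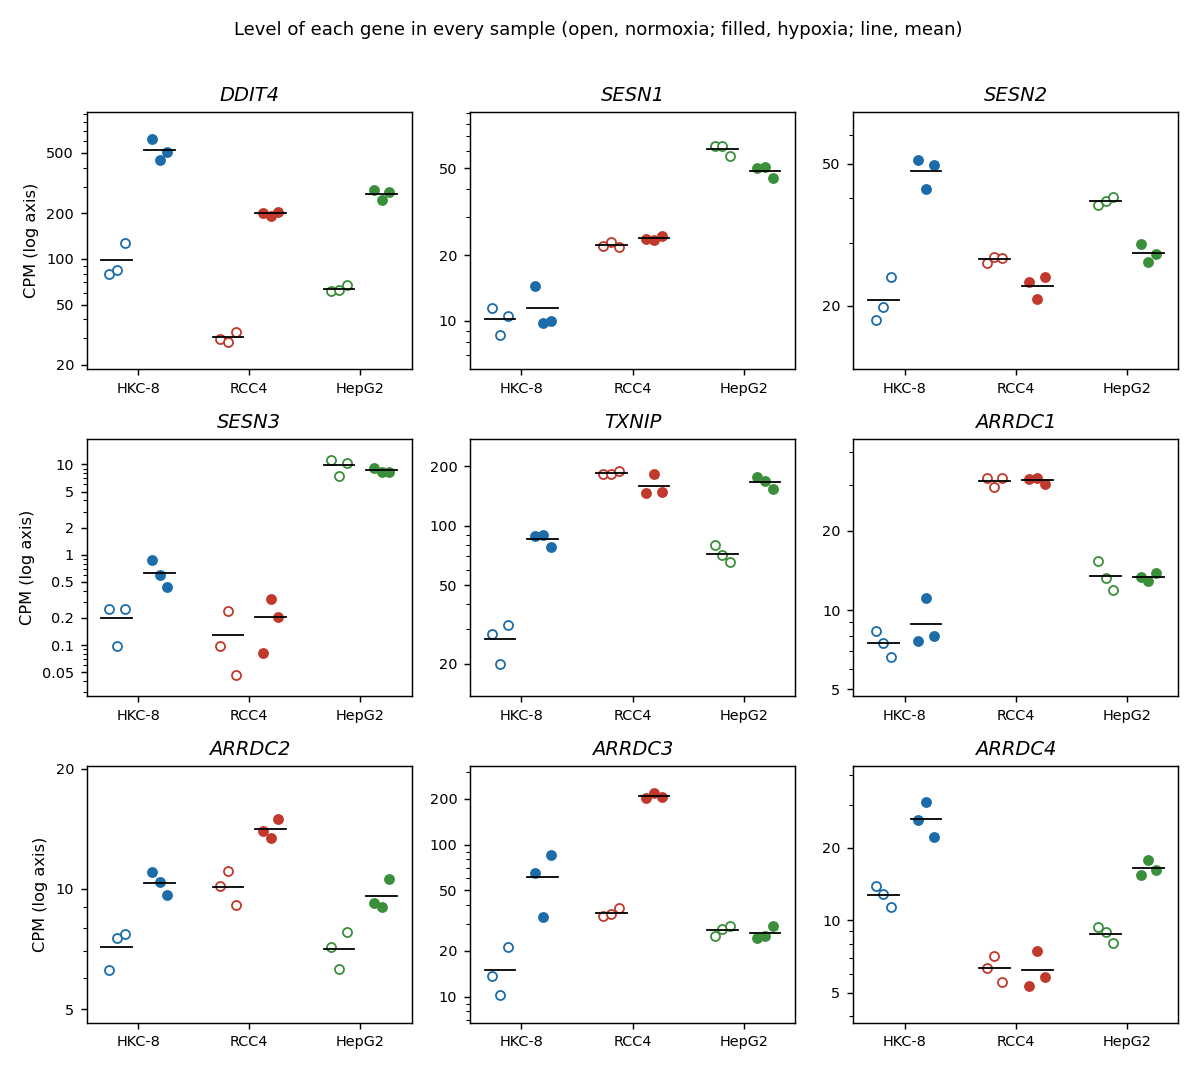
Normalised level (CPM, log axis) of 9 genes in each of the 18 samples; open circles are normoxic and filled circles hypoxic samples, and the horizontal line is the mean of 3 samples. The 3 hypoxic DDIT4 values lie above the normoxic ones in every line, ARRDC3 separates in HKC-8 and RCC4 but overlaps in HepG2, and DDIT4L, at 0 to 10 counts per sample, is not drawn.

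DDIT4, a stress-induced brake on mTORC1, had the highest estimated log2 fold change of the genes in every line. In HKC-8 its normalised counts were 80.0, 84.9 and 128 CPM in normoxia and 616, 446 and 508 CPM in hypoxia. In RCC4 they were 29.7, 28.5 and 33.1 CPM against 200, 193 and 205 CPM, and in HepG2 61.6, 61.9 and 67.0 CPM against 284, 246 and 276 CPM. The normoxic and hypoxic samples did not overlap in any line. The rise was 5.38-fold in HKC-8 (log2 fold change 2.43 ± 0.19 SE, adjusted p = 8.90e-05), 6.59-fold in RCC4 (2.72 ± 0.05, adjusted p = 1.68e-22) and 4.23-fold in HepG2 (2.08 ± 0.07, adjusted p = 6.76e-11). Among all genes tested it ranked 96th from the highest log2 fold change of 13536 in HKC-8, 25th of 12811 in RCC4 and 169th of 13623 in HepG2. The response did not differ detectably between HepG2 and HKC-8 (difference of log2 fold changes -0.34, 95% interval -0.80 to 0.11, adjusted p = 0.354). DDIT4L, the paralogue, had 0 to 10 counts in HKC-8 samples, none in RCC4 and at most 2 in HepG2, and was tested in no line. At 0 counts, its level in RCC4 was not detectable at this depth (3 counts, the limit that a count of 0 allows for counting error only, are worth at most 0.0714 CPM in RCC4).

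The sestrins, which relay leucine and stress signals to the Rag GTPases, did not move together. SESN2 had 18.2, 19.9 and 24.0 CPM in normoxic HKC-8 cells and 51.1, 42.5 and 49.6 CPM in hypoxic ones, a rise of 2.31-fold without overlap (log2 fold change 1.21 ± 0.12, adjusted p = 0.000387). In HepG2 the order was opposite, with 38.2, 39.2 and 40.3 CPM in normoxia and 29.8, 26.6 and 27.9 CPM in hypoxia, a 1.40-fold fall (-0.48 ± 0.07, adjusted p = 0.000136). In RCC4 it fell slightly, from 26.4, 27.4 and 27.2 CPM to 23.3, 20.9 and 24.0 CPM (-0.24 ± 0.06, adjusted p = 0.00223), a call that was lost in a single fit of all 18 samples (adjusted p = 0.0676). The difference of the SESN2 response between HepG2 and HKC-8 was -1.69 ± 0.15 on the log2 scale (95% interval -2.00 to -1.37, adjusted p = 4.44e-06). SESN2 was thus higher in hypoxia in all HKC-8 samples and lower in all RCC4 and HepG2 samples.

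SESN1, which is known chiefly as a target of p53, was tested in all lines and passed in HepG2. There it fell from 63.3, 63.3 and 56.8 CPM to 50.2, 50.8 and 45.0 CPM (log2 fold change -0.33 ± 0.07, adjusted p = 0.00285), with no overlap. In HKC-8 the groups overlapped at 11.5, 8.64 and 10.5 CPM against 14.5, 9.78 and 9.99 CPM (0.16 ± 0.18, adjusted p = 0.553). In RCC4 the hypoxic values of 23.8, 23.5 and 24.4 CPM lay just above the normoxic ones of 22.0, 23.0 and 21.8 CPM without passing the test (0.11 ± 0.06, adjusted p = 0.136). The HepG2 minus HKC-8 difference was -0.49 (95% interval -0.91 to -0.07, adjusted p = 0.138), and it passed with the replicate number as a block in both lines (-0.48, adjusted p = 0.00781).

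SESN3, a FOXO target in other settings, was close to the detection limit in the kidney lines. HKC-8 samples had 21, 8 and 23 counts in normoxia and 69, 58 and 36 counts in hypoxia, or 0.252, 0.0986 and 0.253 CPM against 0.865, 0.593 and 0.436 CPM, without overlap. The rise of 1.64 ± 0.43 on the log2 scale (adjusted p = 0.0295) was no longer called without normoxia replicate 1 (1.82, adjusted p = 0.0770), without normoxia replicate 2 (1.32, adjusted p = 0.0824) or without hypoxia replicate 1 (1.35, adjusted p = 0.124). RCC4 had 2 to 16 counts per sample and was not tested. HepG2 held far more SESN3, at 11.3, 7.45 and 10.5 CPM in normoxia and 9.21, 8.34 and 8.35 CPM in hypoxia, and the groups overlapped (-0.17 ± 0.14, adjusted p = 0.347). The response differed between HepG2 and HKC-8 by -1.80 ± 0.40 (95% interval -2.65 to -0.95, adjusted p = 0.0103). That test used a single estimate of spread for both lines. Its SE is below that of the HKC-8 rise alone (0.43), which rests on 8 to 69 counts per sample. A long non-coding gene (LNCRNA-IUR) and an unnamed gene are annotated on the opposite strand of SESN3. Since the sources used here do not state whether counting used strand, their reads and those of SESN3 cannot be told apart.

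Per kilobase of the longest annotated transcript (RPKM), SESN2 made up most of the sestrin RNA in the kidney lines. In HKC-8 its share of the summed sestrin RPKM was 76.5% ± 3.98 (SD, n = 3) in normoxia and 87.0% ± 2.03 in hypoxia, and SESN1 made up 23.2% ± 3.90 and 12.6% ± 1.92. In RCC4 the SESN2 share was 66.4% ± 0.627 in normoxia and 60.7% ± 1.35 in hypoxia. HepG2 held SESN1 and SESN2 at nearly equal shares, 46.6% ± 2.20 and 49.0% ± 1.98 in normoxia, and 48.8% ± 2.14 and 46.1% ± 2.02 in hypoxia. Which of the 2 is higher in normoxic HepG2 depends on the length used: with coding length, the shares were 52.2% for SESN1 and 38.5% for SESN2. SESN3 was 4.40% ± 0.920 of the sum in normoxic HepG2 and at most 0.414% on average in the kidney lines (9.31% and at most 1.05% with coding length).

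**Figure D2:**
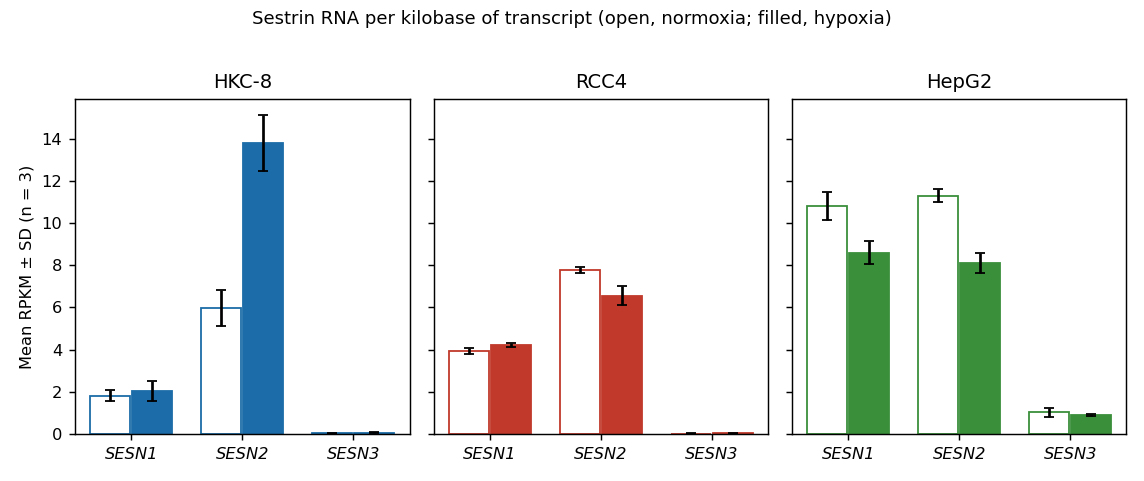
Mean level of the 3 sestrin RNAs per kilobase of transcript (RPKM, error bars SD, n = 3) in each cell line; open bars are normoxia and filled bars hypoxia. SESN2 rises in HKC-8 from 5.98 to 13.8 RPKM and falls in HepG2 from 11.3 to 8.10 RPKM, and SESN3 is visible only in HepG2.

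TXNIP and ARRDC4, the pair of α-arrestins that lower glucose uptake, rose in HKC-8 and HepG2 but not in RCC4. TXNIP had 28.4, 20.0 and 31.4 CPM in normoxic and 88.5, 90.3 and 78.2 CPM in hypoxic HKC-8 cells, a 3.23-fold rise (log2 fold change 1.69 ± 0.15, adjusted p = 0.000188). In HepG2 it rose 2.30-fold, from 79.9, 71.4 and 65.4 CPM to 176, 169 and 153 CPM (1.20 ± 0.08, adjusted p = 7.23e-08). In neither line did the groups overlap. RCC4 started from the highest normoxic level, 183, 184 and 190 CPM, and had 146, 184 and 148 CPM in hypoxia. The second hypoxic sample lay within the normoxic range, and the decrease of 0.21 on the log2 scale (-0.21 ± 0.06, adjusted p = 0.00371) was -0.33 without that sample. This RCC4 call was lost with DESeq2 (-0.22, adjusted p = 0.106) and in a single fit of all 18 samples (-0.22, adjusted p = 0.222). The HepG2 minus HKC-8 difference for TXNIP was -0.49 (95% interval -0.88 to -0.10, adjusted p = 0.114), and it passed with the replicate number as a block in both lines (-0.50, adjusted p = 0.0322) and without HKC-8 normoxia replicate 3 (-0.65, adjusted p = 0.0180).

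ARRDC4, at lower levels, had estimated log2 fold changes in the same order of lines as TXNIP. It rose 2.08-fold in HKC-8, from 13.9, 12.9 and 11.3 CPM to 26.0, 30.8 and 22.2 CPM (log2 fold change 1.06 ± 0.14, adjusted p = 0.00168), and 1.87-fold in HepG2, from 9.40, 8.91 and 8.07 CPM to 15.4, 17.8 and 16.2 CPM (0.90 ± 0.10, adjusted p = 1.13e-05). RCC4 had 6.36, 7.09 and 5.57 CPM in normoxia and 5.34, 7.45 and 5.82 CPM in hypoxia, which overlapped (-0.03, 95% interval -0.29 to 0.24, adjusted p = 0.876). Its response did not differ detectably between HepG2 and HKC-8 (-0.15, 95% interval -0.53 to 0.23, adjusted p = 0.671).

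ARRDC3, an adaptor known for the turnover of β-adrenergic receptors and integrin β4, showed the widest spread of responses between lines. RCC4 had 33.8, 34.9 and 38.4 CPM in normoxia and 202, 219 and 206 CPM in hypoxia, a 5.89-fold rise (log2 fold change 2.56 ± 0.05, adjusted p = 3.38e-22) that ranked 28th of 12811 genes. In HKC-8 it rose 4.10-fold, from 13.6, 10.2 and 21.1 CPM to 64.7, 33.3 and 85.5 CPM (2.03 ± 0.35, adjusted p = 0.00544). The HKC-8 groups did not overlap, although the second sample was lowest in both conditions. HepG2 had 25.1, 27.8 and 29.3 CPM in normoxia and 24.3, 25.1 and 29.0 CPM in hypoxia, with overlapping groups (-0.07, 95% interval -0.26 to 0.12, adjusted p = 0.566). The difference of response between HepG2 and HKC-8 was -2.10 ± 0.39 (95% interval -2.93 to -1.27, adjusted p = 0.00310). An antisense gene, ARRDC3-AS1, overlaps ARRDC3, and reads of the 2 cannot be told apart here if strand was not used. The ARRDC3 window printed above held none of the motifs searched.

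ARRDC2 rose to a similar, small extent in every line. HKC-8 had 6.28, 7.52 and 7.71 CPM in normoxia and 11, 10.4 and 9.65 CPM in hypoxia (log2 fold change 0.53 ± 0.13, adjusted p = 0.0219). RCC4 went from 10.2, 11.1 and 9.10 CPM to 14.0, 13.4 and 15.0 CPM (0.48 ± 0.09, adjusted p = 5.58e-05), and HepG2 from 7.14, 6.29 and 7.81 CPM to 9.21, 9.03 and 10.6 CPM (0.44 ± 0.11, adjusted p = 0.00808). The groups did not overlap in any line. The HKC-8 call was lost without normoxia replicate 1 (0.44, adjusted p = 0.0982), without normoxia replicate 2 (0.57, adjusted p = 0.0532) and without hypoxia replicate 1 (0.49, adjusted p = 0.0950). The HepG2 minus HKC-8 difference was -0.09 (95% interval -0.47 to 0.30, adjusted p = 0.838). ARRDC1, which is known for its part in the budding of vesicles from the plasma membrane, had overlapping groups in all lines. Its log2 fold change was 0.25 ± 0.17 in HKC-8 (adjusted p = 0.323), 0.01 ± 0.05 in RCC4 (adjusted p = 0.901) and -0.02 ± 0.10 in HepG2 (adjusted p = 0.883). ARRDC1 also overlaps an antisense gene, ARRDC1-AS1, and unnamed genes are annotated opposite SESN1 and ARRDC2, so that the same doubt about strand holds for the fall of SESN1 and the rises of ARRDC2. It holds too for the few counts of DDIT4L, which DDIT4L-AS1 and H2AZ1-DT overlap on the opposite strand.

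**Figure D3:**
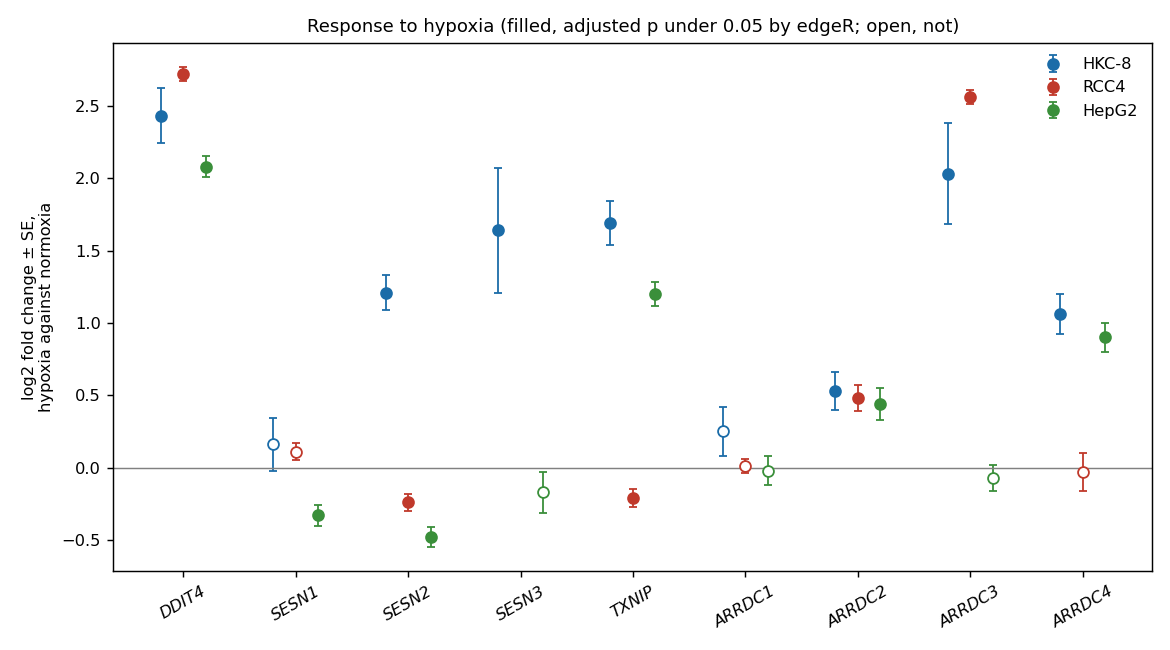
Log2 fold change in hypoxia against normoxia of 9 genes in each line (points, edgeR estimate; bars, SE; 3 against 3 samples); filled points passed an adjusted p of 0.05 and open ones did not. DDIT4 lies between 2.08 and 2.72 in all lines, ARRDC3 is at 2.03 and 2.56 in HKC-8 and RCC4 but at -0.07 in HepG2, and SESN2 is at 1.21 in HKC-8 but below 0 in RCC4 and HepG2.

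Whether the response itself differed between lines was tested for HepG2 against HKC-8, which share an exposure in the labels' oxygen and duration fields, although the HKC-8 titles give the lower oxygen named above. Of the 9 genes tested, 3 had a lower log2 fold change in HepG2 than in HKC-8 (SESN2, which moved in opposite directions, SESN3 and ARRDC3) and none a higher one, where 9.30% of 15046 genes differed in either direction. With the replicate number as a block, 5 passed, SESN1 and TXNIP being added, beside 20.1% of all genes. That block paired the samples of both lines, although the correlations of same-numbered HepG2 samples were low (r = 0.165, 0.0617 and 0.184). ARRDC1 gave -0.27 (95% interval -0.73 to 0.18, adjusted p = 0.470). The HKC-8 libraries were also the deepest, and the parts of line, depth and, if the titles are right, oxygen in these differences cannot be told apart.

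In normoxia the lines held the genes at distinct levels. Between any 2 lines 8 of 9 genes tested differed, a share close to that of all genes (80.8% for RCC4 against HKC-8, 83.0% for HepG2 against HKC-8 and 83.3% for HepG2 against RCC4, of 14806 tested). The line is confounded with depth and with any batch, and in the last contrast the median of all genes was itself at 0.11 on the log2 scale. DDIT4 was highest in HKC-8 (97.6 ± 26.3 CPM, SD, n = 3), followed by HepG2 (63.5 ± 3.03) and RCC4 (30.4 ± 2.38), and each step passed the test. ARRDC4 had the same order, with 12.7 ± 1.32, 8.79 ± 0.676 and 6.34 ± 0.761 CPM. SESN1 was highest in HepG2 (61.1 ± 3.73 CPM) and lowest in HKC-8 (10.2 ± 1.46), with RCC4 between them (22.3 ± 0.672). SESN2 had that order over a narrower range (39.2 ± 1.03, 27.0 ± 0.498 and 20.7 ± 2.99 CPM). SESN3 was 48.2-fold higher in HepG2 than in HKC-8 (log2 difference 5.59 ± 0.33, adjusted p = 1.62e-09). Normoxic samples held only 8 to 23 SESN3 counts in HKC-8 and 2 to 12 in RCC4. With so few reads, the test of RCC4 against HKC-8 cannot decide whether these lines differ (log2 difference -0.60 ± 0.53, adjusted p = 0.312).

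Among the α-arrestins, TXNIP, ARRDC1 and ARRDC2 were highest in RCC4. TXNIP stood at 186 ± 3.86 CPM there, 72.2 ± 7.28 in HepG2 and 26.6 ± 5.89 in HKC-8, and each step passed. ARRDC1 ran from 31.0 ± 1.34 CPM in RCC4 through 13.6 ± 1.76 in HepG2 to 7.49 ± 0.833 in HKC-8. ARRDC2 was higher in RCC4 (10.1 ± 1.01 CPM), while HKC-8 and HepG2 did not differ detectably (7.17 ± 0.774 and 7.08 ± 0.760, log2 difference 0.00, 95% interval -0.29 to 0.30). ARRDC3 was lowest in HKC-8 (15.0 ± 5.61 CPM), and RCC4 (35.7 ± 2.40) and HepG2 (27.4 ± 2.13) did not differ by the test (log2 difference -0.37, 95% interval -0.78 to 0.04, adjusted p = 0.0838). Per length, DDIT4 held the highest level of the genes in hypoxic cells of every line, at 299 ± 49.4 RPKM in HKC-8, 154 ± 11.5 in HepG2 and 114 ± 3.40 in RCC4. In normoxia that place was held by DDIT4 in HKC-8 (55.8 ± 15.0 RPKM) and HepG2 (36.3 ± 1.73) but by TXNIP in RCC4 (64.1 ± 1.33).

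The other genes of the same pathways mostly changed by less than 1 on the log2 scale. Of 72 genes in 11 lists (the TSC complex, mTORC1, GATOR1, GATOR2, the Rag GTPases, mTORC1 substrates, AMPK, the regulators of TXNIP and ARRDC4, thioredoxin, NEDD4 ligases and other arrestins), 14 rose and 8 fell of 66 tested in HKC-8, or 21.2% and 12.1%, beside 11.2% and 9.12% of all genes. In RCC4, 13 rose and 18 fell of 67 (19.4% and 26.9%), beside 25.9% and 24.2%, and in HepG2, 8 rose and 21 fell of 65 (12.3% and 32.3%), beside 19.9% and 19.2%. Their median log2 fold changes were -0.07, -0.06 and -0.04, against 0.00 for all genes. RRAGD, a Rag GTPase, was the gene that changed most and rose in all lines. It had 311 to 365 counts in normoxic and 656 to 844 in hypoxic RCC4 samples (log2 fold change 1.18 ± 0.11, adjusted p = 7.63e-09), and 29 to 48 against 108 to 146 in HepG2 (1.66 ± 0.22, adjusted p = 5.84e-05). HKC-8 had 1, 1 and 16 counts against 32 to 61 (2.99 ± 0.75, adjusted p = 0.0246), so that the size of that change rests on very few reads, and leaving out normoxia replicate 1 or 2 or hypoxia replicate 1 or 3 ended the call (adjusted p up to 0.0942). Leaving out normoxia replicate 3, which held the 16 counts, moved the HKC-8 value to 5.36.

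DEPTOR, an inhibitory subunit of mTORC1, rose 2.01-fold in HKC-8 (log2 fold change 1.01 ± 0.12, adjusted p = 0.000984), from 6.43 ± 0.376 to 12.9 ± 1.06 CPM (SD, n = 3). It did not pass in RCC4 (-0.04, adjusted p = 0.852) or HepG2 (0.28, adjusted p = 0.529). SAMTOR, the S-adenosylmethionine sensor of the pathway, rose 2.02-fold in HepG2 (1.01 ± 0.11, adjusted p = 7.08e-06), from 10.8 ± 1.15 to 21.7 ± 2.41 CPM. It also rose in RCC4 (0.47 ± 0.06, adjusted p = 1.61e-06) and in HKC-8 (0.59 ± 0.15, adjusted p = 0.0290), where leaving out normoxia replicate 1 or 2 or hypoxia replicate 1 or 3 ended the call (adjusted p up to 0.118). Of the regulators of TXNIP and ARRDC4, MLXIP rose in HKC-8 (0.47 ± 0.08, adjusted p = 0.00619), fell in RCC4 (-0.20 ± 0.05, adjusted p = 0.00247) and did not pass in HepG2 (0.13 ± 0.07, adjusted p = 0.149). MLX fell in all lines (-0.49 in HKC-8, -0.36 in HepG2 and -0.24 in RCC4). MLXIPL fell in HepG2 (-0.92, adjusted p = 8.55e-06), where it stood at 60.2 ± 6.93 CPM in normoxia, and had at most 25 counts in any sample of the other lines. These 3 genes, the whole of that list, are named here after their values were seen, since none changed by 1 or more on the log2 scale in a line where it was tested.

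**Figure D4:**
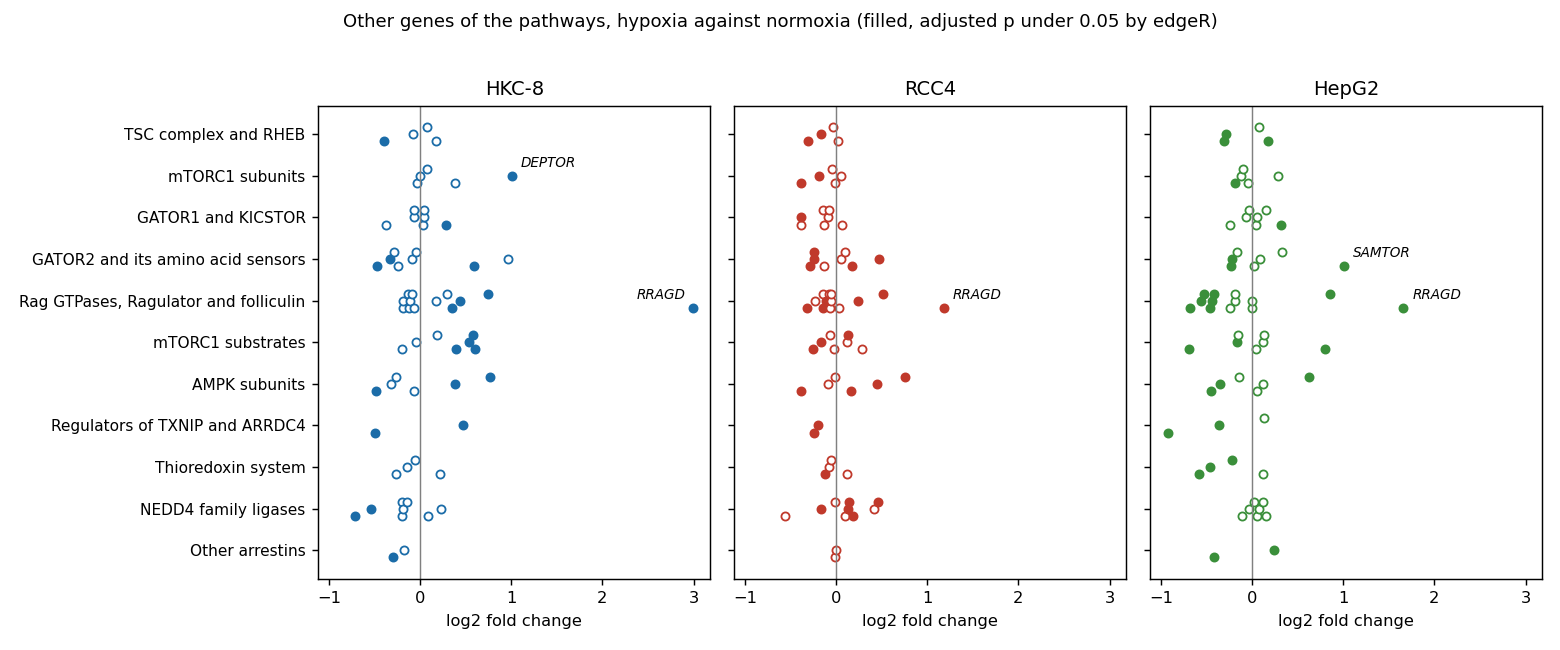
Log2 fold change in hypoxia against normoxia (horizontal axes) of each tested gene of the 11 pathway lists (rows), 1 panel per cell line; filled points passed an adjusted p of 0.05 in edgeR, and genes that passed with a change of at least 1 are named. Most points lie within 1 of 0, and RRAGD is the gene named in all 3 panels.

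The genes whose levels ran most like DDIT4 over the 18 samples were BNIP3 (Pearson r = 0.979, Spearman rho 0.967), STC2 (0.979 and 0.963) and PFKFB4 (0.967 and 0.934), among 10867 genes with at least 10 counts in every sample. Those most like TXNIP were PGM1 (0.957 and 0.748), PDGFRB (0.954 and 0.759) and ARSD (0.944 and 0.794). The rank correlations of the TXNIP set are well below the linear ones. These values describe samples that share line, oxygen and depth.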

How the data were processed

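PolyA+ RNA libraries (ScriptSeq v2) of 18 samples were sequenced by the authors, who trimmed reads with Trim Galore 0.3.3, aligned them to GRCh37 with TopHat 2.0.8b and Bowtie 1.0.0, removed non-unique alignments with SAMtools 0.1.19 and counted them over UCSC genes with HTSeq 0.5.4p3 (intersection-strict). The deposited files hold these counts unnormalized. Whether counting used strand is not given in the sources used here. HKC-8 libraries were run over several lanes.

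Counts were tested with edgeR 4.0.16 (filterByExpr, TMM, glmQLFit and glmQLFTest, Benjamini-Hochberg adjustment over all genes tested, threshold 0.05) within each line, as an interaction of line and oxygen for HKC-8 and HepG2, and between lines in normoxia. SE is the size of the log2 fold change divided by the square root of F. Levels are CPM with TMM factors over all 18 samples, and RPKM divides these by the longest protein-coding GENCODE transcript. Promoter sequences are from RefSeq (its table is of GRCh38, with 10 of 10 genes found in it). Only the sequences printed above were placed on GRCh37, by exact match, and the other windows were searched for motifs only. Replicates differed by more than sampling noise in every pair. The alternatives tried were DESeq2 1.42.0, a fit of all 18 samples at once, the replicate number as a block, DESeq2's size factors within edgeR, a filter of at least 10 counts per sample or none, and leaving out each sample. Another size factor for levels and coding length for sestrin shares were chosen after seeing the data. The scripts were tested on simulated data.

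The 10 genes, the lists and the rule for naming were chosen with earlier results of these data known. List genes are named where they passed with a log2 fold change of at least 1 in a line. For DDIT4 and TXNIP, the 3 genes with the highest Pearson r are named. Deviations from the group mean correlated between normoxic and hypoxic HKC-8 samples of the same number (r = 0.109, 0.453 and 0.447). The main tests did not pair samples. The numbers were taken to pair them only in the fits with the replicate number as a block. The normoxic sample correlated best with the hypoxic one of its own number in 2 of 3 cases in HKC-8, 3 of 3 in HepG2 and 1 of 3 in RCC4. The pairing comes from these correlations only, since the labels name no shared day or culture.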

Additional observations from a re-analysis of the deposited data

Results flagged for a closer look

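The response to hypoxia differed between HepG2 and HKC-8 for 3 of the genes by the edgeR interaction test. The HepG2 minus HKC-8 difference of log2 fold changes was -1.69 for SESN2, -1.80 for SESN3 and -2.10 for ARRDC3. SESN2 was higher in hypoxia in 3 of 3 HKC-8 samples and lower in 3 of 3 HepG2 samples, whereas the HepG2 values of SESN3 and ARRDC3 overlapped between conditions. SESN3 had at most 69 counts in any HKC-8 sample, and the part of depth in its difference was not tested.

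Of 67 pathway genes, the same test called 10 with a lower and 2 with a higher log2 fold change in HepG2. These were 14.9% and 2.99% of the pathway genes, beside 4.28% and 5.02% of all 15046 genes tested. Chosen after their values were seen, FLCN was at -0.97, PRKAG2 at -0.90 and RRAGC at -0.85. MLXIPL, also among the lower calls, was at -3.32, but it had at most 25 counts in any HKC-8 sample. These were too few for a test within HKC-8, so the size of that difference rests on very few reads. The 2 higher were SMURF2, a NEDD4 family ligase (0.69, adjusted p = 0.00625), and PRKAB2, an AMPK subunit (0.45, adjusted p = 0.0335). Under the 18 other settings, SMURF2 was called in 18 and PRKAB2 in 11 (adjusted p up to 0.102). FLCN, the folliculin that acts on RRAGC and RRAGD, rose in HKC-8 (0.44, adjusted p = 0.0120, lost without normoxia replicate 1 at 0.0692 or hypoxia replicate 1 at 0.0612) and fell in HepG2 (-0.53, adjusted p = 0.000147).

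In RCC4, SESN1 had a log2 fold change of 0.11, with all 3 hypoxic samples above the normoxic ones, whereas all HepG2 samples moved down. SESN2 had -0.24 in RCC4, with all hypoxic samples below the normoxic ones, whereas all HKC-8 samples moved up. Neither of these differences was tested, because the labels give RCC4 another exposure. Groups of 3 are too small for a search for single outlying samples.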

How the results depend on the processing

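Of 847 values of the 10 genes under other settings, 813 kept their direction and their side of the threshold, 9 were no longer called, 8 became called and 17 changed sign. Of the 602 values of genes called by edgeR, 593 were called in the same direction, 9 were no longer called and 0 changed sign. Those that changed sign under a setting other than a left-out sample were ARRDC2 in normoxic HepG2 against HKC-8, at -0.08 without the low-count filter and -0.02 in a single fit of all 18 samples (0.00 in the main analysis). With a sample left out, the uncalled values that changed sign ran from -0.04 to 0.27 for SESN1 in HKC-8, from -0.03 to 0.03 for ARRDC1 and from -0.18 to 0.07 for ARRDC4 in RCC4, from -0.11 to 0.07 for ARRDC1 in HepG2, and from -0.12 to 0.02 for ARRDC2 in normoxic HepG2 against HKC-8. DEPTOR did so too (-0.22 to 0.09 for RCC4, -0.08 to 0.48 for HepG2). That single fit called 3 genes in RCC4 in place of 5, and it called 5013 of all genes in HKC-8 (2757 in the main analysis), 3286 in RCC4 (6423) and 2219 in the interaction (1399).

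With the replicate block, which the correlations bear out only in part in HKC-8, 5 genes were called in the interaction in place of 3, all genes called rose to 5755 in HKC-8 and 3019 in the interaction, and no other call of the 10 genes changed. The block of the interaction paired the HepG2 samples too. The correlations were low in HepG2 (r = 0.165, 0.0617 and 0.184), although each normoxic sample there was closest to its own number, and near 0 in RCC4 (-0.0103, 0.0333 and 0.0147).

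Leaving out each sample in turn gave 5 to 7 of the genes called in HKC-8, 5 in RCC4, 6 to 7 in HepG2, 3 to 5 in the interaction, and 8 in RCC4 against HKC-8, 8 in HepG2 against HKC-8 and 8 to 9 in HepG2 against RCC4 in normoxia. The 5 in the interaction came without HKC-8 normoxia replicate 3, where DDIT4 (-0.62, adjusted p = 0.0128) and TXNIP joined. In HepG2, SESN3 was called without normoxia replicate 2 (-0.32, adjusted p = 0.0368). ARRDC3 in normoxic HepG2 against RCC4 was called without the low-count filter (-0.44, adjusted p = 0.0362) and without HKC-8 normoxia replicate 2 or 3. All genes called in HKC-8 ran from 1013 (without normoxia replicate 1) to 3283 (without normoxia replicate 3), and in the interaction from 911 to 1890. The cause of these moves was not tested. Levels in CPM moved by less than their SD with another size factor in 60 of 60 cases. Sestrin shares moved with coding length in 18 of 18. Counts of the pathway lists moved by over 1.5 times in 38 cases with other settings (226 did not) and in 65 with a sample left out (265 did not). Counts were few for SESN3 in the kidney lines, RRAGD in HKC-8 and DDIT4L in all lines, and the part of depth in this was not tested.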
